A study of Mus musculus with 42 samples.

Results

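HOXC9 and HOXC13 are posterior Hox transcription factors (TFs), and the sites that each bound most strongly in differentiating mouse neurons at day 3 are compared here. Each factor's deposited list of binding events was cut to chromosomes 1 to 19 and X and ranked by the estimated number of ChIP reads of each event, and the top 10000 events were kept. The members are thus 20000 of the 1087512 events in the 21 lists of the series. A top event was called shared if the full list of the other factor held any event within 100 bp, and alone if it did not. This gave 5723 HOXC9-shared, 4277 HOXC9-alone, 5068 HOXC13-shared and 4932 HOXC13-alone sites.

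The cells were embryonic stem cells of the Ainv15 background, grown as embryoid bodies (EBs) and directed towards spinal motor neurons by 3 days of retinoic acid (RA) and the Hedgehog agonist SAG. Doxycycline (Dox) for the last 24 h induced a single-copy tagged transgene at the HPRT locus. HOXC9 was assayed in 2 libraries of the line Ainv15(iFlag.Hoxc9) with an anti-Flag antibody. HOXC13, made from a human cDNA, was assayed in 1 library of Ainv15(iFlag.Hoxc13) with anti-Flag and 1 library of Ainv15(iHoxc13.HA) with anti-HA. The control was an anti-Flag library of day 3 cells carrying a V5-tagged Hoxc10. Event lists hold no expression values, so the labelled cell state was not checked against markers.

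Depth was similar between the factors. The HOXC9 libraries held 26.8 and 25.6 M aligned reads and the HOXC13 libraries 26.5 and 31.0 M. The caller assigned to signal a mean of 0.286 of the reads in the HOXC9 libraries (SD 0.158, n = 2), from 0.174 to 0.398. In the HOXC13 libraries the mean was 0.351 (SD 0.0339, n = 2). A list gives 1 value per event over both libraries, so no spread between differentiations exists for any site. By the labels the HOXC9 and HOXC13 libraries came from different sequencing runs, so that factor and run cannot be told apart.

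Hox genes lie in clusters whose order matches the order of expression along the body axis. HOXC9 marks thoracic levels of the spinal cord and limits the limb-innervating motor columns to brachial and lumbar levels, whereas HOXC13 is the most posterior gene of its cluster and is best known for its role in hair and nail formation. Hox proteins bind DNA through a homeodomain, which reads short AT-rich words, and often pair with the cofactors PBX and MEIS. The words followed here are TAAT, the core word preferred by anterior and central Hox factors, TTTAT, the posterior Hox motif, TTTAC, which is known for HOXC13, and TGATTTAT, the composite word of PBX and a posterior Hox factor. All were sought on both strands.

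The strongest sites of each kind show these words. The windows below hold 101 bases around the event on the plus strand of GRCm38, with each TTTAT or TTTAC, or its reverse complement ATAAA or GTAAA, in capitals. The first is the strongest HOXC9-alone site, in an intron of Tbcel (chr9:42484077-42484177).
HOXC9-alone, Tbcel: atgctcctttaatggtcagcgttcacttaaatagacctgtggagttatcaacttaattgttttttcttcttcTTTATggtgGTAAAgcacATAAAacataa
The strongest HOXC13-alone site lies in an intron of Ddx4, with Il31ra as the nearest start site (chr13:112621458-112621558).
HOXC13-alone, Il31ra: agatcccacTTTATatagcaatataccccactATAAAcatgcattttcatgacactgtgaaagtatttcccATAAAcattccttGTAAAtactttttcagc
The strongest sites in both top lists are intergenic, with Zfp703 (chr8:26661112-26661212) and Negr1 (chr3:156356046-156356146) nearest, and a site in an intron of Hoxc5 (chr15:103014610-103014710) from the same order is added for its place in the HoxC cluster.
Both top lists, Zfp703: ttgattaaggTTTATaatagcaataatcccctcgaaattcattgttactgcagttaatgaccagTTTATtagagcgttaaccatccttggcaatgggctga
Both top lists, Negr1: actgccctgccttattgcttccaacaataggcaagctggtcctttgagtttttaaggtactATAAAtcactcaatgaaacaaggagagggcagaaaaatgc
Both top lists, Hoxc5: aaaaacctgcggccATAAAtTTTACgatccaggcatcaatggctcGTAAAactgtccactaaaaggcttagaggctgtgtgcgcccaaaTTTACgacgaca
The Tbcel window holds 2 copies of TTTAT and 1 of TTTAC, the Il31ra window 3 and 1, and the Hoxc5 window 1 and 3. The Negr1 window holds the composite word TGATTTAT on the minus strand.

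HOXC9 and HOXC13 shared many of their strongest sites, but fewer than 19% were in both top lists. Of the top HOXC9 events, 57.2% (95% interval 56.3 to 58.2) had a HOXC13 event within 100 bp, and of the top HOXC13 events 50.7% (49.7 to 51.7) had a HOXC9 event. The partner was itself a top event for 18.95% (18.2 to 19.7) of the HOXC9 and 18.6% (17.9 to 19.4) of the HOXC13 events. The median rank of the nearest partner was 20598 in the HOXC13 list and 17222 in the HOXC9 list. The HOXC13 list is the longer, with 115819 against 74067 events on these chromosomes, and with both lists cut to the same length the shares were 50.3% and 50.7%.

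Sharing fell with rank in both lists. It was 75.8% (73.1 to 78.4) in the first 1000 HOXC9 events, 46.3% in the ninth and 49.9% (46.8 to 53.0) in the last 1000 of the top list. For HOXC13 it was 69.9% (66.99 to 72.7) and 40.7% (37.7 to 43.8). Below the top 10000 it was 31.2% of HOXC9 and 19.4% of HOXC13 events. Strong sites of 1 factor alone nevertheless existed, with 242 HOXC9-alone and 301 HOXC13-alone sites in the first 1000 events.

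**Figure D1:**
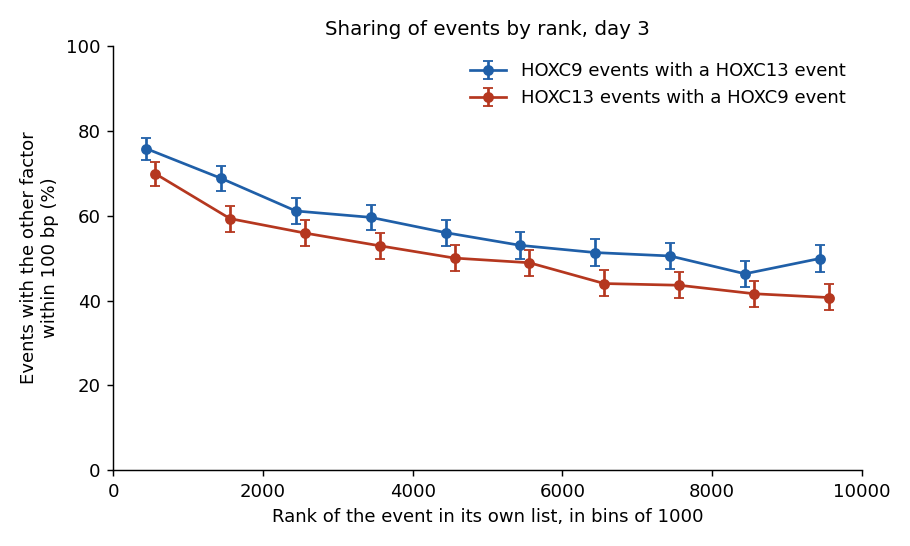
Share of events with an event of the other factor within 100 bp (y axis, percent) against the rank of the event in its own list (x axis, bins of 1000), for HOXC9 (blue) and HOXC13 (red), with 95% Wilson intervals as bars. Sharing fell from 75.8% to 49.9% for HOXC9 and from 69.9% to 40.7% for HOXC13.

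The cut-offs fell on a continuum. The last HOXC9 event kept had 316.4 estimated ChIP reads, as had the first one left out, and for HOXC13 both values were 344.8. Of the top HOXC9 events, 93 had their nearest HOXC13 event at 91 to 100 bp and 62 at 101 to 110 bp. The corresponding counts for HOXC13 were 66 and 43. At 40.3% of the top HOXC9 and 35.9% of the top HOXC13 events the other factor's event lay at the very same base. Both lists came from 1 joint run of the caller, which can place events of several factors together, and its part in this was not tested.

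Alone sites were somewhat weaker than shared ones. The median number of estimated ChIP reads per 1 M aligned reads (RPM) was 8.98 (8.85 to 9.10) at HOXC9-alone and 10.7 (10.5 to 10.9) at HOXC9-shared sites. At HOXC13-alone sites it was 8.95 (8.83 to 9.12) and at HOXC13-shared sites 10.7 (10.5 to 10.9). The median of control reads was between 4 and 4.5 in all 4 classes.

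HOXC13-alone sites carried more of both posterior words than HOXC9-alone sites did. TTTAT lay within 50 bp of 80.1% (79.0 to 81.2) of HOXC13-alone and 56.6% (55.1 to 58.1) of HOXC9-alone sites, so that HOXC9-alone minus HOXC13-alone came to -23.5 percentage points (-25.4 to -21.7). TTTAC lay near 55.0% (53.6 to 56.4) of HOXC13-alone and 22.8% (21.6 to 24.1) of HOXC9-alone sites, a difference of 32.2 points (30.3 to 34.0). In windows 1 kb to each side, TTTAT was found at 33.7% and 35.5% and TTTAC at 19.6% and 20.5%, respectively. TTTAC at HOXC9-alone sites was thus close to its level in those flanks.

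Shared sites lay between the alone classes in TTTAC. It was found at 34.3% (33.0 to 35.5) of HOXC9-shared and 44.6% (43.2 to 46.0) of HOXC13-shared sites. HOXC9-alone sites had TTTAT less often than HOXC9-shared sites, at 56.6% against 73.2% (72.0 to 74.3), a difference of -16.6 points (-18.4 to -14.7). HOXC13-alone and HOXC13-shared sites had TTTAT at like levels, 80.1% and 81.7% (80.6 to 82.7), and differed by -1.56 points (-3.10 to -0.02). Over all events, TTTAT was found at 62.4% of the HOXC9 and 78.8% of the HOXC13 list and TTTAC at 27.7% and 42.8%.

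The words that favoured HOXC9-alone over HOXC13-alone sites were the core and the composite. TAAT was found at 77.9% (76.6 to 79.1) of HOXC9-alone and 65.9% (64.6 to 67.2) of HOXC13-alone sites, a difference of 11.9 points (10.12 to 13.8). The composite TGATTTAT, which contains TTTAT, was found at 5.99% (5.31 to 6.74) of HOXC9-alone sites but 1.30% (1.02 to 1.65) of HOXC13-alone sites. Its level in the flanks was 0.795% and 0.618%. HOXC13-shared sites had it at 3.43% (2.97 to 3.97). HOXC9-shared sites were like HOXC9-alone sites, with TAAT at 76.6% and the composite at 5.33%. HOXC9-alone minus HOXC9-shared was 1.31 points (-0.35 to 2.97) for TAAT and 0.656 points (-0.253 to 1.59) for the composite.

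**Figure D2:**
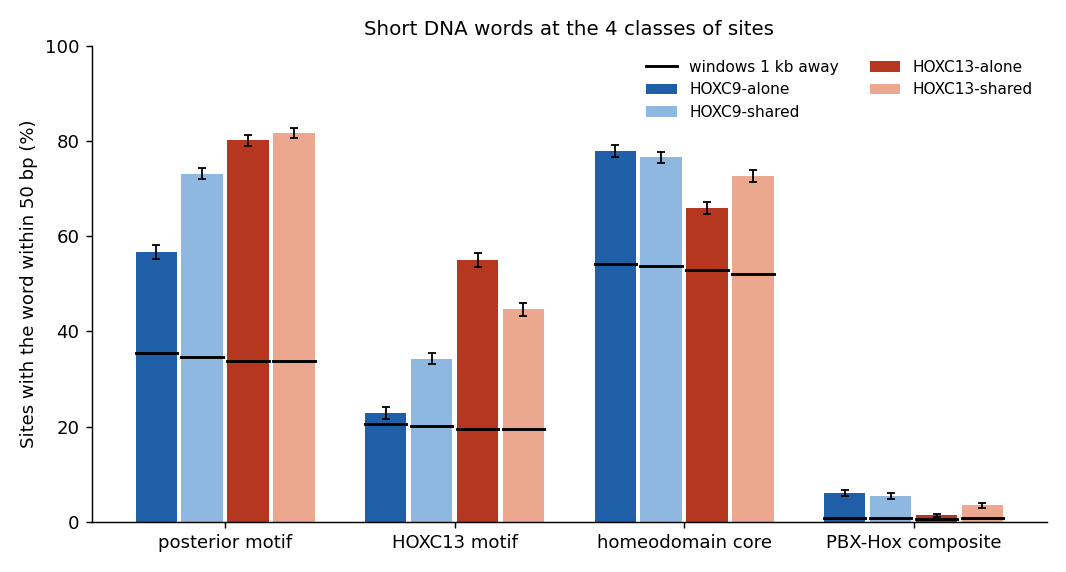
Share of sites with each word on either strand within 50 bp (y axis, percent) for the posterior motif TTTAT, the HOXC13 motif TTTAC, the homeodomain core TAAT and the PBX-Hox composite TGATTTAT, in the 4 classes of sites, with 95% Wilson intervals as bars. Black lines mark the same share in windows 1 kb away, which TTTAC at HOXC9-alone sites (22.8%) exceeded by little and at HOXC13-alone sites (55.0%) by much.

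The number of copies differed too. Counting TTTAT and TTTAC together, 69.7% (68.4 to 70.97) of HOXC13-alone sites held at least 2 copies within 50 bp, as did 28.9% (27.5 to 30.3) of HOXC9-alone sites. The mean was 2.17 copies at HOXC13-alone, 2.05 at HOXC13-shared, 1.64 at HOXC9-shared and 1.06 at HOXC9-alone sites. Neither word was found at 32.8% (31.4 to 34.2) of HOXC9-alone and 6.37% (5.72 to 7.08) of HOXC13-alone sites. In the first 1000 events TTTAC lay at 60.1% (54.5 to 65.5) of HOXC13-alone and 24.0% (19.02 to 29.7) of HOXC9-alone sites.

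Both words peaked on the event itself. A TTTAT centre lay within 5 bp of the event at 27.6% of HOXC13-alone, 31.6% of HOXC13-shared, 26.7% of HOXC9-shared and 18.1% of HOXC9-alone sites. A TTTAC centre lay there at 12.9%, 8.70%, 6.38% and 4.21% of the same classes. In the bin from 17 to 27 bp on the side of higher coordinates, TTTAT was found at 15.5% of HOXC13-alone and 8.09% of HOXC9-alone sites. The caller can use motifs in placing events, and its part in the central peak was not tested.

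**Figure D3:**
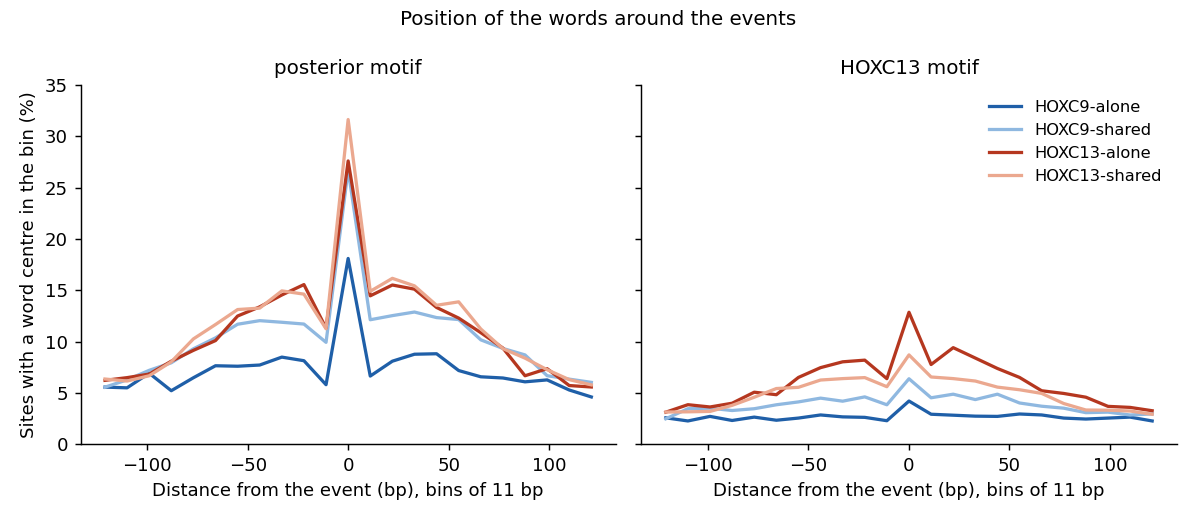
Share of sites with a word centre in each bin of 11 bp (y axis, percent) by distance from the event (x axis, bp), for the posterior motif TTTAT (left) and the HOXC13 motif TTTAC (right) in the 4 classes. The middle bin held TTTAT at 18.1% to 31.6% and TTTAC at 4.21% to 12.9% of sites, lowest at HOXC9-alone sites for both.

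Among all 6-base words, the 5 of largest difference between the alone classes in each direction were picked after their values were seen. TATAAA, the reverse complement of TTTATA, was found at 35.4% of HOXC13-alone and 10.97% of HOXC9-alone sites, and TGTAAA, which reads TTTACA on the other strand, at 33.2% and 10.08%. ATAAAA was found at 46.96% and 23.99% of these classes. AATAAA lay at 43.6% and 22.3% and GTAAAA at 25.6% and 6.03%. Each of these 5 words holds TTTAT or TTTAC on the other strand. The next words in this direction included GTTTTA, at 27.98% and 11.04%, and TTACAA, at 25.4% and 8.42%, which hold neither. In the other direction differences were smaller, and AAATCA, part of the composite word, was found at 20.9% of HOXC9-alone and 8.39% of HOXC13-alone sites. CAGATG, a form of the E-box read by basic helix-loop-helix factors such as the neurogenins, lay at 17.2% of HOXC9-alone sites, against 7.21% in their flanks and 4.95% at HOXC13-alone sites. ATCAAT, at 17.1% and 5.13%, GATTTA, at 21.4% and 10.0%, and CCATTA, which holds TAAT on the other strand, at 18.0% and 6.79%, followed. The windows differed in base composition as well, with a median GC content of 40.6% at HOXC9-alone and 37.6% at HOXC13-alone sites.

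HOXC9-alone and HOXC13-alone sites differed in which other Hox factors were found there. By the rule, HOXC9-alone sites hold a HOXC9 event and HOXC13-alone sites hold none. A list that overlaps the HOXC9 list thus differs between these classes by the split itself, and this part was not separated. Of the day 3 lists of HOXC6, HOXC8, HOXC10, HOXA9 and HOXD9, made with induced transgenes, none had an event within 100 bp of 91.7% (90.9 to 92.5) of HOXC13-alone sites. At HOXC9-alone sites this share was 4.82% (4.21 to 5.50), and 39.7% (38.2 to 41.2) had an event of all 5. The lists of HOXC6, HOXC10, HOXA9 and HOXD9 came from the same run of the caller as HOXC9 and HOXC13 and share its control library.

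HOXA9, a paralog of HOXC9, had events at 89.8% (88.9 to 90.7) of HOXC9-alone and 6.43% (5.78 to 7.15) of HOXC13-alone sites. HOXC10 had them at 66.2% (64.8 to 67.6) and 0.608% (0.426 to 0.867). The central factors gave the same order, with HOXC6 at 50.0% and 0.345% and HOXC8, called in another run, at 75.2% and 1.99%. At HOXC13-shared sites the shares were 65.7% for HOXA9, 33.9% for HOXC10 and 16.8% for HOXC6. Between HOXC9-shared and HOXC9-alone sites HOXC10 differed by -0.311 points (-2.18 to 1.57), an interval that includes 0.

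Lists of HOXC9 at a later time and in another cell state were called in other runs. Libraries of the same line at day 4, after 48 h of Dox, gave events at 92.1% (91.3 to 92.9) of HOXC9-alone and 95.8% (95.2 to 96.3) of HOXC9-shared sites. They gave events at 6.37% (5.72 to 7.08) of HOXC13-alone sites, which were chosen for holding no HOXC9 event at day 3. In EBs of the same HOXC9 line given Dox for 12 h, whose labels name neither RA nor SAG, events lay at 54.9% (53.4 to 56.3) of HOXC9-alone and 78.9% (77.8 to 79.9) of HOXC9-shared sites, but also at 29.2% (27.9 to 30.5) of HOXC13-alone sites. The EB list holds 128322 events on these chromosomes and the day 4 list 44020, and the part of list length in this was not tested.

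MEIS events lay at HOXC9-alone sites far more often than at HOXC13-alone sites. The classes were split by HOXC9 events, and the first list below comes from cells with induced HOXC9. The contrast thus depends on the split as well. Events of an anti-MEIS library from the iHoxc9.V5 line at day 3 lay at 52.6% (51.1 to 54.1) of HOXC9-alone, 45.6% (44.3 to 46.9) of HOXC9-shared, 20.3% (19.2 to 21.5) of HOXC13-shared and 0.547% (0.377 to 0.795) of HOXC13-alone sites. HOXC9-shared minus HOXC9-alone was -7.01 points (-8.98 to -5.03). In the iHoxc6.V5 and iHoxc10.V5 lines MEIS events lay at 24.2% and 31.0% of HOXC9-alone and at 0.284% and 0.264% of HOXC13-alone sites. Each MEIS list rests on 1 library, and none was made in HOXC13 cells. The PBX lists of day 4 held 1164 and 848 events and lay at 0.304% of HOXC9-alone sites or less, too few to compare.

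Chimeras of HOXC10 and HOXC13 differed in which class they reached. The same limit holds here, since the classes were split by HOXC9 and HOXC13 events. HOXC13:C10.2 joins the N-terminal part of HOXC13 to the homeodomain and C-terminus of HOXC10, including a conserved stretch before the homeodomain. Its events lay at 96.1% (95.5 to 96.6) of HOXC9-alone and 9.14% (8.37 to 9.98) of HOXC13-alone sites. HOXC10:C13.2 is the reverse swap, and its events lay at 19.4% (18.3 to 20.6) of HOXC9-alone and 46.4% (45.0 to 47.8) of HOXC13-alone sites. HOXC13-shared sites had HOXC10:C13.2 events at 68.1% (66.8 to 69.3), so that HOXC13-alone minus HOXC13-shared was -21.7 points (-23.6 to -19.8).

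The chimeras that swap the homeodomain and C-terminus without the conserved stretch gave the same order with smaller gaps. HOXC13:C10.1 events lay at 34.3% (33.0 to 35.7) of HOXC13-alone sites, and HOXC9-alone minus HOXC13-alone was 60.6 points (59.1 to 62.1), against 87.0 points (85.9 to 87.9) for HOXC13:C10.2. HOXC10:C13.1 events lay at 18.3% of HOXC9-alone and 27.9% (26.6 to 29.1) of HOXC13-alone sites, a difference of -9.53 points (-11.2 to -7.82), against -27.0 points (-28.8 to -25.1) for HOXC10:C13.2. The chimera lists hold from 61413 to 99228 events and were called in a run that also held HOXC10 and HOXC13 but not HOXC9.

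**Figure D4:**
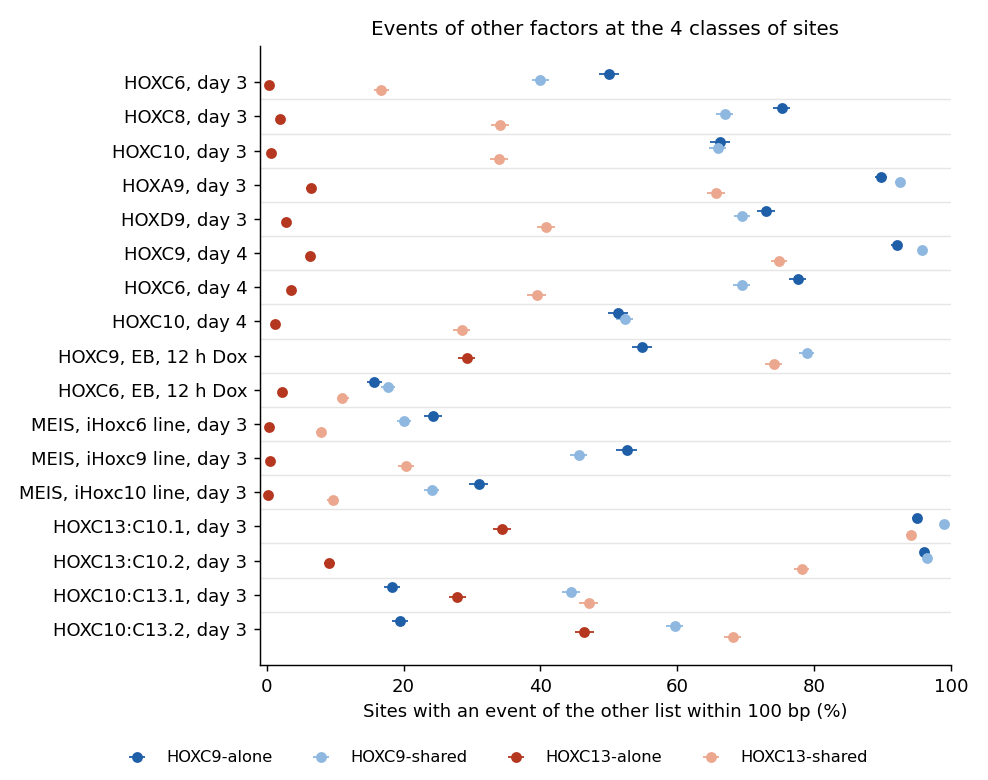
Share of sites with an event of each other list within 100 bp (x axis, percent), by list (y axis) and class of sites (colours), with 95% Wilson intervals as bars. HOXC13-alone sites (dark red) stay at or under 6.43% for every full-length day 3 list and rise to 29.2% for HOXC9 in EBs and 46.4% for HOXC10:C13.2. These sites were chosen to hold no HOXC9 event at day 3.

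HOXC13-alone sites lay nearer to start sites than HOXC9-alone sites did. The median distance to the nearest protein-coding start site was 46.3 kb (42.7 to 49.4) at HOXC13-alone, 56.5 kb (53.3 to 60.5) at HOXC13-shared, 66.1 kb (62.6 to 70.4) at HOXC9-shared and 74.0 kb (68.3 to 79.8) at HOXC9-alone sites. Within 1 kb of a start site lay 2.90% (2.47 to 3.41) of HOXC13-alone and 2.06% (1.67 to 2.53) of HOXC9-alone sites, a difference of 0.842 points (0.203 to 1.48). Both were below the 3.81% of assembled bases that lie so near. Between 1 and 10 kb lay 18.9% (17.9 to 20.1) of HOXC13-alone and 12.4% (11.5 to 13.4) of HOXC9-alone sites.

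Introns held 45.9% of HOXC13-alone and 43.3% of HOXC9-alone sites, and exons 3.51% (3.03 to 4.06) and 1.85% (1.48 to 2.30). HOXC9 sites clustered more along the genome, as 29.3% (28.0 to 30.7) of HOXC9-alone and 22.4% (21.2 to 23.5) of HOXC13-alone sites had another site of their class within 10 kb. Much of this was adjacent events. The neighbour lay within 200 bp for 593 of these 1255 HOXC9-alone and 483 of these 1103 HOXC13-alone sites.

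The strongest HOXC9-alone sites, picked by RPM, had the following values. The Tbcel site had 91.8 HOXC9 RPM. A site 33.1 kb downstream of the start of Cyp26a1, which degrades RA, had 66.5, and a site 38.2 kb upstream of Olig2, the progenitor factor of motor neurons, had 64.7. Further sites lay far from any start site, the nearest being that of Arrdc3, an arrestin-domain adaptor, at 686.7 kb (63.9 RPM), Cdca2, a mitotic phosphatase regulator, at 116.7 kb (59.9 RPM), and Pik3r1, a regulatory subunit of PI3 kinase, at 383.2 kb (56.96 RPM). Those in introns of Dnah11, an axonemal dynein, and Cadm2, a synaptic adhesion protein, had 56.2 and 54.7, and one 64.9 kb from the start of Fam169b had 54.3. Of the 10 strongest sites, 9 also had a HOXC10 event (66.2% of all HOXC9-alone sites) and 10 a HOXC9 event at day 4 (92.1%). A MEIS event in iHoxc9.V5 cells lay at 7 (52.6%) and a HOXC13:C10.2 event at 10 (96.1%).

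None of these lists had an event at the 10 strongest HOXC13-alone sites, a class chosen for holding no HOXC9 event at day 3. Over all HOXC13-alone sites their shares were 0.608%, 6.37%, 0.547% and 9.14%, in the same order. The Il31ra site had 83.9 HOXC13 RPM. A site 432.7 kb upstream of Atxn7l3b had 66.8, an intron of Slc8a1, a sodium-calcium exchanger, 29.3 kb from the start of Gm11096 had 64.0, and an intron of Dnm3, a dynamin, had 59.5. Introns of Hs3st2, a heparan sulfate sulfotransferase, and Slc9a9, a sodium-proton exchanger, had 57.8 and 57.5. A Malrd1 intron 353.3 kb from the start of Plxdc2 had 56.6, an intron of Wwox, an oxidoreductase, 56.3, and an intergenic site 59.8 kb from the start of Syne1, a nuclear envelope protein, 55.7. At 8 of the 10 there was a HOXC10:C13.2 event (46.4% of all HOXC13-alone sites) and at 4 a HOXC9 event in EBs (29.2%). Introns held 8 of these 10 sites and 4 of the HOXC9-alone ones, against 45.9% of all HOXC13-alone and 43.3% of all HOXC9-alone sites. Control reads were 10 or fewer at all 20.

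At sites in both top lists the depth-scaled reads of the factors were balanced in the median ratio but differed site by site. The rule cut both lists on these same reads at nearly equal values, 6.04 RPM for HOXC9 and 6.00 for HOXC13. The median ratio is thus a description and no measure of equal binding. Pairing each event with its mutual nearest neighbour gave 1773 sites, 69.7% of them at the same base. The median log2 ratio of HOXC13 over HOXC9 RPM was -0.03 (-0.08 to 0.02), with quartiles of -0.72 and 0.68. At least 2-fold higher in HOXC13 were 307 sites, or 17.3%, against a background of 22.9% over all 25195 pairs of the full lists, and at least 2-fold higher in HOXC9 were 312, or 17.6%, against 28.0%. Both shares lay below the background, and sites in both top lists had to pass a read minimum in each list. Scaled by signal reads instead, the median was -0.33 and the counts were 204 and 458. Across these sites the log2 reads of the factors had r = 0.187 and rho = 0.163 (n = 1773), a description, since sites share the libraries and the minimum.

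**Figure D5:**
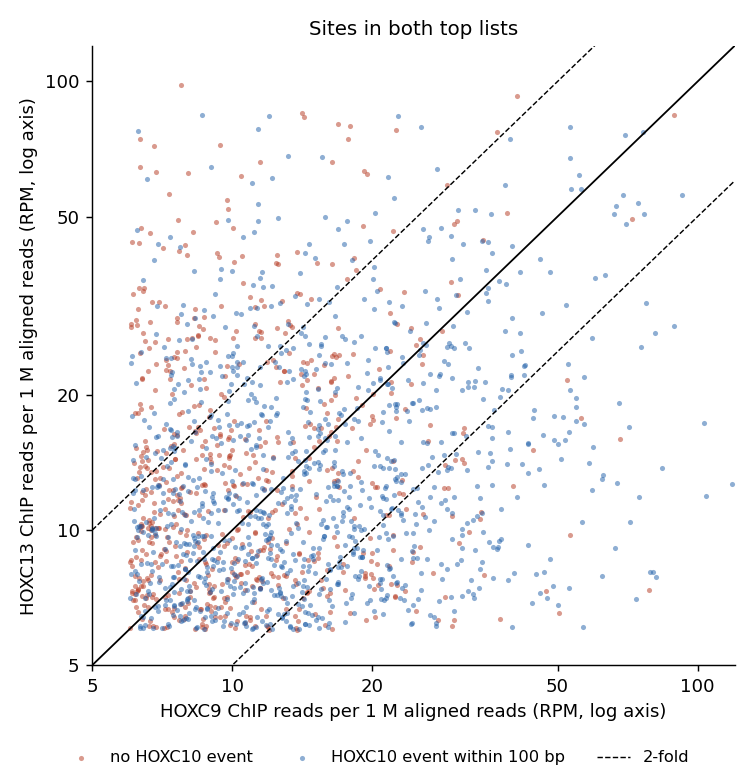
HOXC13 against HOXC9 RPM, estimated ChIP reads per 1 M aligned reads (log axes), at the 1773 sites in both top lists, coloured by whether a HOXC10 event lay within 100 bp. The solid line marks equal values and the dashed lines a 2-fold difference, inside which 1154 sites lie.

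By the lower of the RPM values, the strongest site for both, 316.2 kb from the start of Zfp703, a transcriptional corepressor, had 89.1 HOXC9 and 84.4 HOXC13 RPM, and the next, 205.7 kb from the start of Negr1, a neuronal adhesion protein, had 76.4 and 77.2. A site 482.4 kb upstream of Pou3f2, a neural POU factor, had 69.7 and 75.8. The Hoxc5 site, 0.845 kb downstream of a start site, had 55.5 and 61.7. The others had Slc35b4, Prok2, Lipi, Gatb, Cxcl12, a chemokine, and 1600014C23Rik as the gene of the nearest start site, at 52.3 to 367.4 kb. HOXC9 at day 4, HOXC9 in EBs, HOXC10:C13.2 and HOXC13:C10.2 each had an event at all 10 of these sites. Over all 1773 sites in both top lists their shares were 97.3%, 87.1%, 74.3% and 95.8%.

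The ratio differed with the other lists at a site. Sites with a HOXC10 event had a median log2 ratio of -0.19 (-0.26 to -0.13, n = 1089) and those without had 0.26 (0.19 to 0.35, n = 684). With a MEIS event in iHoxc9.V5 cells it was -0.28 (-0.36 to -0.17, n = 757), without 0.13 (0.05 to 0.22, n = 1016). Sites with both TTTAT and TTTAC had 0.11 (0.01 to 0.20, n = 564) and sites with TTTAT only had -0.09 (-0.16 to -0.01, n = 875). Sites with TTTAC only had -0.15 (-0.31 to 0.12, n = 156) and sites with neither word -0.14 (-0.35 to 0.08, n = 178), and both of these intervals include 0. Scaling by signal reads shifts every ratio down alike, so the signs, and whether an interval includes 0, depend on the scaling. Differences between these groups of sites do not. TTTAT was found at 81.2% and TTTAC at 40.6% of all 1773 sites.

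Among sites in both top lists the extremes reached beyond 10-fold. The read minimum of each list bounds these ratios. At the sites named here the lower value was at most 8.07 RPM, not far above the cuts of 6.04 and 6.00 RPM. Over all 25195 pairs of the full lists the log2 ratio ran from -6.77 to 6.54. The site 177.2 kb from the start of Gm10306 (chr4:94379306-94379406) had 7.75 HOXC9 and 98.3 HOXC13 RPM, a log2 ratio of 3.67. Sites 53.9 kb from the start of Cdkn3, a cell cycle phosphatase, 7.70 kb from that of Uxs1, 535.7 kb from that of Efnb2, an ephrin ligand, and 802.9 kb from that of Pdha2 followed with 3.62, 3.56, 3.40 and 3.35. At the other end the site 48.8 kb from the start of Itga4 (chr2:79206571-79206671), an integrin subunit gene, had 78.8 HOXC9 and 7.34 HOXC13 RPM, a log2 ratio of -3.42. Sites 137.6 kb from the start of Synpr, a synaptic vesicle protein, 65.8 kb from that of Sp4 and 78.1 kb from that of Sox14, an interneuron factor, had -3.39, -3.31 and -3.29. The first site of each end is shown, chosen as the extreme of the ratio.
Highest ratio, Gm10306: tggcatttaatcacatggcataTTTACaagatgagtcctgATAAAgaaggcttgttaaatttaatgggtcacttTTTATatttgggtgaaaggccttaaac
Lowest ratio, Itga4: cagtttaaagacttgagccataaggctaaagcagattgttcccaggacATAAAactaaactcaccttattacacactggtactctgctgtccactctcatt
The Gm10306 window holds 2 copies of TTTAT and 1 of TTTAC and the Itga4 window 1 of TTTAT.

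Sites were assigned to genes within 50 kb of the gene body, counted over 21755 protein-coding genes. HOXC9-alone sites reached 10.9% of them, HOXC13-alone sites 17.6%, HOXC9-shared sites 13.9%, HOXC13-shared sites 14.8% and sites in both top lists 5.73%. Both alone classes reached 4.06%. Long genes collect more sites. Genes with a HOXC9-alone site had a median body of 60.2 kb and those with a HOXC13-alone site 45.3 kb, against 17.4 kb for all. These shares, used as backgrounds below, were not matched for body length.

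Genes with most sites of each alone class were long. HOXC9-alone sites were most frequent near Auts2, a regulator of neuronal development, with 21 against 5 HOXC13-alone sites, followed by the neural TF Npas3 with 15 and 6 and the axon guidance receptor Robo2 with 13 and 3. The neurexin Nrxn3 and the teneurin Tenm2 had 12 each, Aff3 and Cntnap2 had 10, and Erbb4, Pard3b, Robo1 and 1 gene more had 9. HOXC13-alone sites were most frequent near the adhesion receptor Adgrl3, with 11 against 4 HOXC9-alone sites, the synaptic scaffold Dlg2, with 10 and 6, and Galntl6, with 9 and 0. Pard3b had 9 of each, and Sox5, a TF of neural development, 9 and 3. Fgfr2, whose body spans 2960.9 kb in this annotation, Hdac9, Lrmda, Macrod2 and Vps13b had 8 HOXC13-alone sites, as had 1 gene more. The shortest of these bodies, that of Aff3, spans 487.6 kb.

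Hox genes lay near sites of both factors. All 15 anterior genes (paralogs 1 to 5) and all 8 central genes (paralogs 6 to 8) had a site in both top lists within 50 kb. So had 12 of 16 posterior genes (paralogs 9 to 13). The background over protein-coding genes was 5.73%. Neighbouring Hox genes share sites, so counts within the clusters are clearer. From the first to the last gene the HoxA cluster held 15 HOXC9-shared and 1 HOXC9-alone site, HoxB 12 and 1, HoxC 8 and 0, and HoxD 6 and 1. For HOXC13 the shared and alone counts were 9 and 2 in HoxA, 7 and 2 in HoxB, 6 and 3 in HoxC and 6 and 1 in HoxD.

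Within HoxC the counts differed at the posterior end. Hoxc4 and Hoxc5 had 12 HOXC9-shared sites each within 50 kb, Hoxc9 had 7, Hoxc10 5 and Hoxc11 2, and no HOXC9-shared or HOXC9-alone site lay near Hoxc12 or Hoxc13. HOXC13-alone sites numbered 3 near Hoxc9, Hoxc10, Hoxc11, Hoxc12 and Hoxc13 alike, 3 near Hoxc5, 2 near Hoxc6 and Hoxc8, and 0 near Hoxc4. The body of Hoxc5 spans 49.99 kb in this annotation and starts next to the start of Hoxc10. Its window therefore reaches the posterior end of the cluster. In the full lists 1 HOXC9 and 13 HOXC13 events lay within 50 kb of Hoxc13. All 16 posterior Hox genes had a HOXC13-alone site within 50 kb (background 17.6%) and 9 had a HOXC9-alone site (background 10.9%). Here too the same site can count for several neighbouring genes.

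Genes of motor neuron identity had more HOXC9-alone than HOXC13-alone sites. Of 16, 7 had a HOXC9-alone site within 50 kb (background 10.9%), with 21 gene-site pairs in all. A HOXC13-alone site lay near 3, or 18.75% and so near the background of 17.6%, with 5 pairs in all. Ebf1, a TF of neuronal differentiation with a long gene body of 390.8 kb, had 8 HOXC9-alone and 0 HOXC13-alone sites. Nkx6-1 had 3 and 1, Olig2 3 and 0, and Lhx3, a motor neuron LIM factor, 2 and 0. Isl1, Isl2, Mnx1, Onecut1, Chat and Slc18a3 had no top site of any class. Lhx4 and Pax6 had 2 HOXC13-alone sites each and no HOXC9-alone site.

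Motor column and pool markers had a HOXC9-alone site at 12 of 18 (background 10.9%) and a HOXC13-alone site at 6 of 18 (background 17.6%). Bodies in this list ran from 3.85 kb (Pou3f1) to 597.4 kb (Foxp1), with Mecom at 596.7 kb and Ephb1 at 432.6 kb. The background was not matched for length. Foxp1, which marks the limb-innervating columns, had 5 HOXC9-alone and 2 HOXC13-alone sites beside 13 HOXC9-shared sites, in a gene body of 597.4 kb. Ephb1 had 3 HOXC9-alone and 0 HOXC13-alone sites, Epha4, another ephrin receptor of motor axons, 2 and 0, and Mecom 2 and 4. Aldh1a2, the RA-synthesising enzyme of limb-level motor neurons, had 0 HOXC9-alone, 1 HOXC13-alone and 3 sites in both top lists.

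Against the same backgrounds of 10.9% and 17.6%, tail bud genes had a HOXC9-alone site at 7 of 25 and a HOXC13-alone site at 7 of 25, with Lin28b, an RNA-binding regulator of axial growth, at 2 and 2, Nkx1-2 at 2 and 1 and Wnt8a at 2 and 0. Genes of MEIS and PBX cofactors had them at 5 of 9 for both, with Pbx3 at 4 and 1, Pknox2 at 3 and 3, Meis1 at 2 and 4 and Meis2 at 2 and 3. RA pathway genes had them at 6 of 16 and 3 of 16, the latter 18.75% and so near the background. Cyp26a1 and Cyp26c1, which lie side by side so that the same sites can count for both, had 2 HOXC9-alone sites each, and Dhrs3, a retinaldehyde reductase, 3 HOXC13-alone sites. Of 13 hair and nail genes matched by name, 2 had a HOXC9-alone site, Msx1 with 3 and Foxq1 with 2, and 5 had a HOXC13-alone site, with 1 each near Foxq1 and the keratins Krt35, Krt81, Krt83 and Krt86. The last 3 lie within 50 kb of each other on chromosome 15, so their windows overlap and the same site can count for each.

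At start sites the strongest HOXC9-alone sites lay at Hdx, a homeodomain gene on the X chromosome, with 44.4 RPM, and Hsdl2 with 30.5. The strongest HOXC13-alone sites lay at Macrod2 with 44.2, Thsd4 with 35.9 and Mttp, a lipid transfer protein, with 33.6. Of the 52 sites in both top lists within 1 kb of a start site, the strongest in HOXC9 lay at Hoxc4, with 80.9 HOXC9 and 27.5 HOXC13 RPM, and the next at Zfp407 and at Prdm13, a neural zinc-finger gene, with 68.2 and 16.0 and with 59.6 and 15.3. These start-site genes were picked after their values were seen.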

How the data were processed

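ChIP-seq libraries of induced HOXC9 and HOXC13 at day 3, 2 per factor, were used as the event lists the authors made from them. Reads had been aligned to mm10 with Bowtie 1.0.1, keeping single best hits, and events called with MultiGPS over the pooled libraries of a factor against an anti-Flag control at q under 0.001. Picard 2.8.2 and edgeR 3.22.5 are also named in the submitters' processing notes. The deposited values per event are estimated counts of ChIP and control reads, a log2 fold over control, and a log2 q-value that was handled as a score for ranking. The comparison columns between factors that the authors deposited (180 over the series) hold their own edgeR log2 values and q-values and were not used.

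Events on chromosomes 1 to 19 and X were ranked by estimated ChIP reads, and the top 10000 of each list were split by an event of the other full list within 100 bp. Estimated counts were scaled to 1 M of the aligned reads pooled in a list (RPM). Words were sought on either strand within 50 bp, and windows 1 kb to each side served as the local level. Genes and start sites are those of GENCODE vM21. The sequence deposited with each of the 74067 HOXC9 and 115819 HOXC13 events was found at that event's position in GRCm38, the assembly also named mm10. Shares have 95% Wilson intervals, differences of shares Newcombe intervals and medians order-statistic intervals, computed with scipy 1.17.1 and numpy 2.4.6. They cover counting error only and take sites as independent, which neighbouring events are not. No p-value is given because the lists hold no value per library. The functions were tested on simulated lists.

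Named sites were the 10 of highest RPM among HOXC9-alone sites, among HOXC13-alone sites and, by the lower of the 2 values, among sites in both top lists, with the 5 highest and 5 lowest ratios. Named genes were the 10 with most sites of each alone class within 50 kb and up to 4 per gene list, others in a list being added after their values were seen. A few sites that these rules pick are not reported here. The sites, lists and tests were chosen with earlier results of these data known. Alternatives covered ranking, list length, distance, the other factor's list, windows, start sites and depth scaling.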

Additional observations from a re-analysis of the deposited data

Results flagged for a closer look

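The HOXC13 list held 29 events on the mitochondrial chromosome, which lies outside the chromosomes analysed, where each event had more ChIP than control reads by the deposited fold (log2 fold from 0.93 to 4.25). The strongest had an estimated 10440.6 ChIP reads against 381.2 control reads, and 27 of these events would have entered the top 10000 had that chromosome been kept. The HOXC9 list held 1 such event, with 4748.6 ChIP and 577.7 control reads. Dixon's test was not applicable, since no group held 4 to 10 samples with values.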

How the results depend on the processing

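Of 79 recomputed values, 54 stayed within the interval of the value reported, or within 1.5 times a count, and 25 moved beyond it. Of the 11 results, the difference in HOXC10 share between HOXC9-shared and HOXC9-alone sites, whose interval includes 0, took either sign, and the others kept theirs. The share of top HOXC9 events with HOXC13 was 64.3% for the top 5000, 50.7% at 50 bp, 61.9% at 200 bp, 51.6% with HOXC13 events at q under 1e-06, 50.3% with lists of equal length and 18.95% when only the top HOXC13 events counted. The share of top HOXC13 events with HOXC9 was 57.6%, 45.4%, 53.3% and 45.6% under the first 4 of these and 18.6% under the last, and the order of the factors turned at equal length (50.3% and 50.7%). With only the other top list counted as shared, alone sites included weakly shared ones, and the difference in TTTAT share was -17.8 points, in TTTAC share 24.6 points and in HOXC10 share -4.55 points. The TTTAT difference was -21.3 points in 25-bp and -16.3 points in 100-bp windows, and the TTTAC difference was 20.8 points in 25-bp windows. Within 2 kb of start sites the promoter difference was 2.36 points, and for the top 5000 its interval included 0 (-0.07 to 1.78). At 50 bp the MEIS difference was -4.96 points and the HOXC10 difference 3.93 points. The HOXC10:C13.2 difference was -19.4 points for the top 5000. Scaling by signal reads moved the median log2 ratio to -0.33 and the sites at least 2-fold higher in HOXC13 to 204, against 458 in HOXC9. For the top 5000 these counts were 112 and 115 of 772 pairs.

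No paired analysis was possible because each list pools its libraries and gives no value per replicate, so leaving out a replicate could not be run either. The part of depth and signal in the length and sharing of the lists was not tested. The signal fraction was 0.174 and 0.398 in the HOXC9 and 0.375 and 0.327 in the HOXC13 libraries. Factor, cell line and sequencing run cannot be told apart.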
